A study of Caenorhabditis elegans with 2 samples.

Results

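The actin genes of Caenorhabditis elegans, act-1, act-2, act-3, act-4 and act-5, were examined for the CEH-40 fusion protein on chromatin. They were chosen by symbol, and all 5 were found in the Ensembl annotation of WBcel235, among 19985 protein-coding genes. Chromatin immunoprecipitation with sequencing (ChIP-seq) with an antibody against GFP was done on whole young adults at 76 h, in 1 group with 2 biological replicates. The worms were of strain OP232, whose transgene wgIs232 joins ceh-40 to the tags TY1, EGFP and FLAG and carries unc-119, in the mutant background unc-119(ed3). Every library comes from such transgenic animals, starved at the L1 stage after bleaching and then grown. The labels do not say in which cells the fusion protein is made, and whole worms mix all tissues. There was no second condition, and the comparison is between genes.

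Actin is the protein of thin filaments in muscle and of the cytoskeleton in all cells. In C. elegans, act-1, act-2 and act-3 form a cluster on chromosome V and serve in muscle and in the cytoplasm of embryonic cells, act-4 lies on X and is expressed in body wall muscle, and act-5 lies on III and makes the actin of the microvilli of the intestine. CEH-40 is a homeodomain protein of the PBC class, relatives of the fly protein Extradenticle that bind DNA together with Hox proteins. The question asked here is where the CEH-40 signal lies at each actin gene, and whether the cluster differs from act-4 and act-5.

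All 3 thresholded peaks found at actin genes lay in the cluster, around act-2 and between act-2 and act-3, and none lay within 5 kb of act-4 or act-5. A thresholded peak is one of the 867 peaks in the authors' list made from both replicates, which ends at an irreproducible discovery rate (IDR) of 0.01. The IDR sets the rank of a peak in one set beside its rank in another, and it is low for peaks that rank both high and alike in the 2 sets. IDR values below are those of the pooled list and are not the IDR between the replicates, which is named as such where given. A peak counted for a gene when its summit lay in the gene or within 5 kb. By that count 3 of the 5 actin genes had a thresholded peak, against 10.7% of protein-coding genes. The 3 genes shared the same peaks, so they are not 3 separate cases: act-2 and act-3 reached all 3 peaks and act-1 reached 2. With 3 or more peaks, act-2 and act-3 were among 76 of the 19985 genes (0.38%). The 5 kb limit decides part of this contrast. A thresholded peak of signal 69.1, stronger than any in the cluster, had its summit 5029 bp past the end of act-4, only 29 bp beyond the limit, and it was also in the authors' conservative list. That peak (X:4969322-4969561) lay in intergenic sequence, with 37.9 in replicate 1 and 28.6 in replicate 2. For act-5 the nearest thresholded summit was 156776 bp away.

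The strongest of the cluster's peaks (V:11076492-11076731, build ce11) had its summit 165 bp past the 3′ end of act-2, in an exon of the noncoding RNA gene T04C12.14 and 54 bp from that gene's start. The peak over act-2 itself (V:11077939-11078178) had its summit 95 bp into the gene, in coding sequence, and was the only thresholded peak whose summit lay inside an actin gene. The remaining peak (V:11075694-11075933) lay in exons of the noncoding RNA genes T04C12.15 and T04C12.21, between act-2 and act-3, and 1316 bp upstream of the act-3 start. The sequences of the 2 peaks outside the genes are shown because they lie outside actin exons, and the coding part of the act-2 peak is shown against act-1 because these genes are nearly the same. In the peaks, plus strand of the reference, capitals mark GAGAGA or its reverse complement.
peak past act-2: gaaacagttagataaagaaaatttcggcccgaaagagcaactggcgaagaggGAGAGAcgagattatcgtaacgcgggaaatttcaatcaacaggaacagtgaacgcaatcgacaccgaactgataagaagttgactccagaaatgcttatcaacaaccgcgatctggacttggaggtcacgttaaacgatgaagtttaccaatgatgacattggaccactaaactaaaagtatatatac
peak between act-2 and act-3: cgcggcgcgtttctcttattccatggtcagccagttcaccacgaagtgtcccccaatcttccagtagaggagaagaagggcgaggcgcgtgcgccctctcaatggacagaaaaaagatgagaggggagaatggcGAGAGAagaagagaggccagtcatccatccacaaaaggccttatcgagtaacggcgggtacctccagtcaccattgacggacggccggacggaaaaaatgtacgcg
In the coding part of the act-2 peak, V:11077939-11078127 on the minus strand, and the matching part of act-1, V:11081073-11081261 on the plus strand, capitals mark the bases that differ.
act-2 coding part: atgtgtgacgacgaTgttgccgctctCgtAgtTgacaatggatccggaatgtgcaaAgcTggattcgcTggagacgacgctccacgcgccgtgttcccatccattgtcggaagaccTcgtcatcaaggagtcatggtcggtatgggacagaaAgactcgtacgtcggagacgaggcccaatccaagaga
act-1 coding part: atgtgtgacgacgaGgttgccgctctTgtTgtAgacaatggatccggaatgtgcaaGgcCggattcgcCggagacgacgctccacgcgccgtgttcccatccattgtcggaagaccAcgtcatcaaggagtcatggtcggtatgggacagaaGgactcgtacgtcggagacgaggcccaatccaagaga

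The act-2 and act-1 stretches differed at 9 of 189 bases. The same part of act-3 (V:11073055-11073243, minus strand) was identical to that of act-1. Both peaks outside the genes held GAGAGA, as did 24.4% of 815 nuclear thresholded peaks of 240 bp and 21.8% of 19984 promoters of protein-coding genes (300 bp each). The act-2 peak held TGATNNAT once and TAATTA once over its full length. They were found in 10.2% and 7.48% of the 815 peaks, and in 23.6% and 15.5% of the promoters. TGATTGAT, a site that PBC and Hox proteins bind together, is a form of the wider TGATNNAT that the act-2 peak held. None of the 3 peaks held TGATTGAT, TGACAG or TATAAA. Those were found in 1.35%, 7.85% and 18.4% of the 815 peaks, and in 2.53%, 9.68% and 38% of the promoters. Each motif was searched on both strands, and a match is a description of the letters only. The peak past act-2 was 41.7% GC, the act-2 peak 48.8% and the peak between act-2 and act-3 55.4%, against a median of 43.3% over the 815 peaks.

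Signal is the authors' value for each peak, given with no unit. It ranks peaks within a list, and the folds and medians of signal given below are descriptions of these values, not of an amount of bound protein. The peak past act-2 had a signal of 60.7, above that of 99.3% of the 103201 peaks in the pooled ranked list, which holds candidate peaks far below the threshold. The list that matches both replicates holds 7915 candidates that this list does not, 4 in the cluster's windows and 1 in that of act-4, and candidates are those of the pooled ranked list unless another is named. The act-2 peak had 56.4 (above 99.1%), and the peak between act-2 and act-3 had 48.9 (above 98.4%). Their ranks by signal were 762, 961 and 1664. Their IDR values in the pooled list were 0.00414, 0.00623 and 0.00354, so the weakest of them by signal had the lowest IDR. The IDR between replicates was higher, at 0.720, 0.0627 and 0.0166 in the same order. All 3 signals were below the median of the thresholded list, 68.1. The summits were 798 bp and 1447 bp apart, and of the 840 nuclear thresholded peaks 43, in 13 places, lay in a stretch of that total length, 2245 bp, holding at least 3. That stretch length was chosen after its values were seen.

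**Figure D1:**
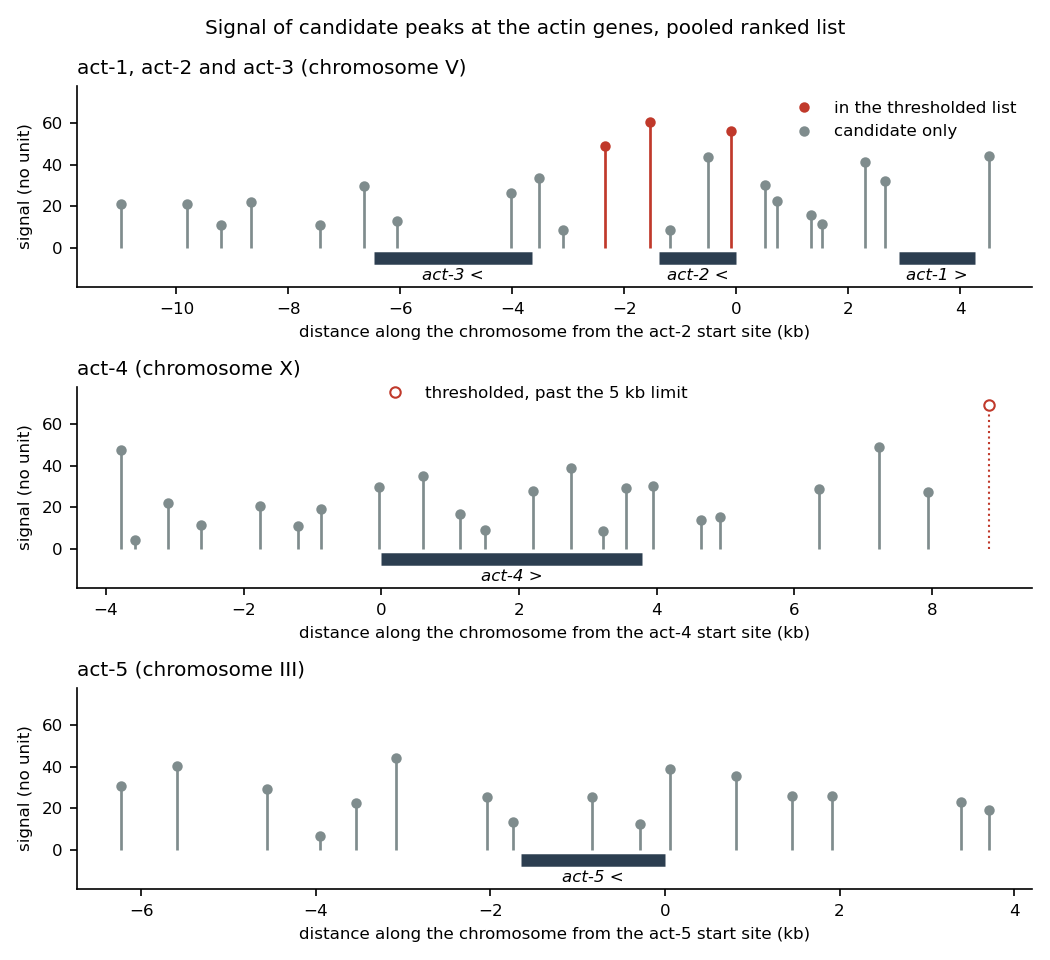
Signal of every candidate peak in the pooled ranked list (vertical axis, no unit) by distance of its summit from a start site along the chromosome (horizontal axis, kb), with genes as dark bars and their direction as an arrow. The cluster on V is above act-4 and act-5; the 3 filled red peaks of signal 60.7, 56.4 and 48.9 are thresholded, grey ones are candidates only, and the open red circle is the peak of signal 69.1 that lies 29 bp past the 5 kb limit of act-4.

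The plot of signal along the loci shows that weaker candidates were spread over all 3 places. The cluster with 5 kb on each side spans 20.7 kb and held 22 candidates (1.06 per kb), against 21 in 13.8 kb around act-4 (1.52 per kb) and 16 in 11.7 kb around act-5 (1.37 per kb). Their median signals were 24.4 in the cluster, 21.9 at act-4 and 25.6 at act-5, against 18.8 over the nuclear chromosomes. The top 5% of the ranked list held 6 of the cluster's candidates, 3 of act-4's and 3 of act-5's. Of the candidates' summits, 4 in the cluster, 3 at act-4 and 1 at act-5 lay in actin coding sequence. Exons of noncoding RNA genes or pseudogenes held 6 of the summits in the cluster, none at act-4 and 3 at act-5. The annotation has 12, 14 and 9 noncoding RNA genes within 5 kb of act-1, act-2 and act-3, and 0 near act-4 and act-5. A piRNA gene, 21ur-13032, also lay near act-3, with a candidate of 29.9 at 177 bp past the 3′ end of act-3. No tRNA, snoRNA, snRNA, rRNA or miRNA gene lay within 5 kb of any actin gene.

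The act-2 gene carried more than its thresholded peak. A candidate 514 bp into the gene, also in coding sequence, had a pooled signal of 43.6 and an IDR of 0.117. A weak candidate of 8.34 lay 1186 bp into the gene. Upstream of act-2, summits at 516 bp and 721 bp had signals of 30.2 and 22.6.

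No candidate summit of the pooled list lay inside act-1 (V:11081052-11082415, plus strand). Replicate 1's own list had 1 of signal 12.1 in an intron, and replicate 2's list had none. The strongest on its upstream side within 1 kb was 602 bp before the start, in exons of the noncoding RNA genes T04C12.16 and T04C12.25, with a signal of 41.3 and an IDR of 0.0696. Another of 32.3 lay 236 bp before the start, and one of 44.1 lay 245 bp past the 3′ end. The candidate 602 bp upstream is shown because it is the strongest at the act-1 start and holds the 6-letter motif on each strand (V:11080330-11080569, plus strand).
candidate upstream of act-1: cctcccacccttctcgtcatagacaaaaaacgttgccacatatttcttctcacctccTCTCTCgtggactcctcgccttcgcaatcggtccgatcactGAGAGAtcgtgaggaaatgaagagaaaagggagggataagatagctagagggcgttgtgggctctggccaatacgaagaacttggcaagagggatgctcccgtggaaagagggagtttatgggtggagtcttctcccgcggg

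In act-3 (V:11071690-11074498, minus strand, 3 annotated start sites), 2 candidates had summits inside the gene. The stronger, in an intron, had 26.2, and the other, in coding sequence, had 13.1. The strongest within 1 kb of a start site of act-3 had 33.6 at 139 bp upstream, with an IDR of 0.649. So the thresholded peaks counted for act-3 lay well outside it, at 1316 bp or more. Within 1 kb of the gene, act-2 alone of the 5 had a thresholded peak, against 4.78% of protein-coding genes.

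At act-4 (X:4960621-4964413, plus strand, 2 annotated start sites), 7 candidates of the pooled list had summits in the gene, the most of any actin gene. It is also the longest actin gene, at 3793 bp, while act-2 had 3 summits in 1378 bp. The strongest summit in act-4 was 39.0, in coding sequence 503 bp past the second start site, with an IDR of 0.117. An intron summit 612 bp past the upstream start site had 35.1, and a summit 28 bp before that start had 29.7. The strongest within 5 kb was 49.0, in an intron of the neighbour M03F4.6, 3441 bp past the end of act-4. Its signal was just above that of the weakest thresholded peak of the cluster, 48.9, but its IDR was 0.103. A candidate of 47.8 lay 3784 bp upstream, with an IDR of 0.0284, and was 581 bp from the start of M03F4.4. Of the 1664 pooled ranked peaks with a signal of at least 48.9, 818 were in the thresholded list.

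At act-5 (III:13604412-13606066, minus strand), the candidate at the start site had a signal of 39.1, a summit 62 bp upstream and an IDR of 0.125. Another of 35.8 lay 816 bp upstream. Inside the gene, an intron summit had 25.4 and a coding one 12.3. The strongest within 5 kb was 44.3 with an IDR of 0.0159, in an annotated pseudogene 1430 bp past the 3′ end. The peak at the act-5 start (III:13606008-13606247, plus strand) is shown as the candidate nearest to an actin start outside the cluster among those in the top 5% of signals. Its capitals again mark GAGAGA.
candidate at the act-5 start: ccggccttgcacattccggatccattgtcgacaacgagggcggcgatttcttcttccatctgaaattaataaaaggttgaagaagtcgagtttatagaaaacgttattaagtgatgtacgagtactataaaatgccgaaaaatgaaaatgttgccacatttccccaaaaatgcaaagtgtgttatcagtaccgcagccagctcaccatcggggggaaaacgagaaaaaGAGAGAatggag

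The replicates gave different pictures of act-2. None of the 3 thresholded peaks was in the conservative list of 713 peaks (8.93% of genes had a conservative peak within 5 kb). None was in the thresholded list of replicate 1 or of replicate 2, where 3.71% and 3.65% of genes had one. The peak over the act-2 coding sequence had a signal of 17.9 in replicate 1 and 44.1 in replicate 2, which differ 2.47-fold. In their own ranked lists those signals stood above 78.2% and 99.2% of candidates. Of 858 thresholded peaks with a signal in both replicates, 31 differed as much or more. The candidate 514 bp into act-2 had 9.20 in replicate 1 and 45.3 in replicate 2, a 4.92-fold difference and the strongest signal of replicate 2 near any actin gene. At both places the replicate 2 signal was the higher. In the replicates' own ranked lists, 4 summits of replicate 1 lay in act-2 coding sequence, with signals between 9.20 and 26.0, against 2 of replicate 2, of 44.1 and 45.3. The 26.0 was 778 bp into the gene and overlapped no candidate of the pooled list. The weak pooled candidate at 1186 bp overlapped a replicate 1 candidate of 16.8 and none of replicate 2. The IDR between replicates was 0.0627 for the peak and 0.708 for the candidate.

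The peak past act-2 had 34.7 in replicate 1 and 8.47 in replicate 2 in the list that matches the replicates, a 4.09-fold difference that only 3 of the 858 peaks reached, this peak among them. That value depends on the match. In replicate 2's own ranked list 2 candidates overlapped the peak, with summits 101 bp and 99 bp away, of signal 26.9 (above 95.2% of candidates) and 8.47 (above 4.77%). With the stronger of them the replicates differed 1.29-fold, close to the median of 1.28-fold over 827 thresholded peaks treated the same way. This treatment was chosen after the values were seen, and it left the fold of the other 2 peaks at 2.47 and 1.32. The peak between act-2 and act-3 had 31.5 in replicate 1 and 23.8 in replicate 2. Its IDR between replicates, 0.0166, was the lowest of the 3. Its replicate 2 candidate had a summit 124 bp from that of the peak, farther than the 101 bp and 99 bp above. The IDR between replicates of the peak past act-2, 0.720, was that of the match with 8.47. By fold with the stronger candidate, the peak past act-2 was the closer pair, 1.29 against 1.32.

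**Figure D2:**
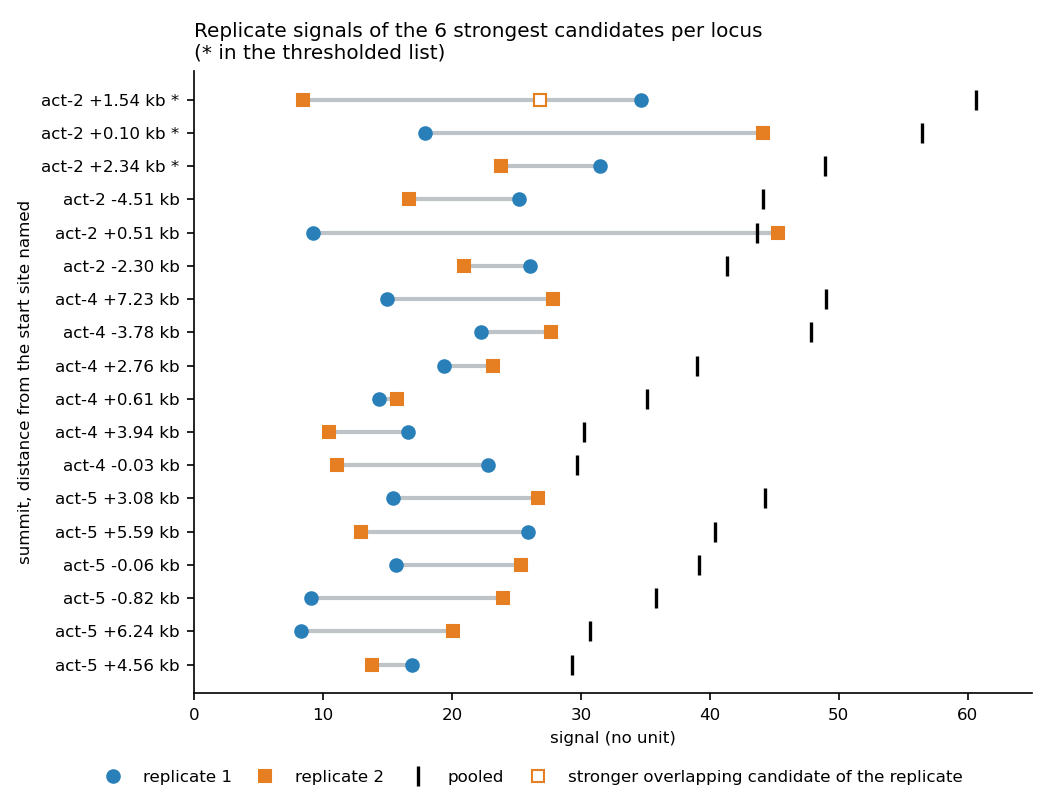
Signal (horizontal axis, no unit) in replicate 1, replicate 2 and the pooled list for the 6 strongest candidates at each of the 3 places that have a value in both replicates, each named by the distance of its summit from a start site. The act-2 summits at 95 bp and 514 bp have the widest gaps with replicate 2 higher (44.1 against 17.9 and 45.3 against 9.20), and the open square marks the stronger replicate 2 candidate of 26.9 that the deposited match did not use.

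**Figure D3:**
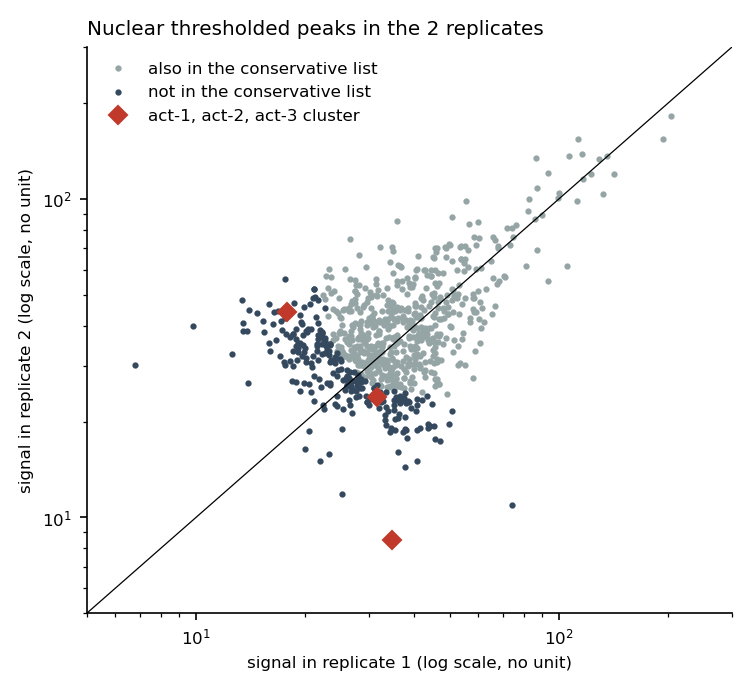
Signal of nuclear thresholded peaks in replicate 1 (horizontal axis) and replicate 2 (vertical axis), both on log scales and with no unit, with the line of equal signal. The 3 peaks of the cluster (red) lie at 34.7 and 8.47, 17.9 and 44.1, and 31.5 and 23.8 in replicates 1 and 2, among peaks that are not in the conservative list (dark).

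The scatter of replicate signals places the 3 peaks against the whole list. Over the 858 peaks the median difference was 1.28-fold and 80 (9.32%) differed 2-fold or more. Among candidates with a value in both replicates, 4 of 17 in the cluster, 3 of 14 at act-4 and 3 of 13 at act-5 differed 2-fold or more, and the median differences were 1.43-fold, 1.26-fold and 1.73-fold. Most of these candidates are not thresholded, so their shares cannot be set against the 9.32%, and the share over all candidates was not computed. The 4 in the cluster include the 4.09-fold of the peak past act-2, which depends on the match. The widest difference at act-4, 7.14-fold, is a candidate of pooled signal 4.16 whose replicate 2 value of 27.6 is also that of its stronger neighbour. The strongest act-4 candidate had 14.95 in replicate 1 and 27.9 in replicate 2, and the strongest act-5 candidate had 15.4 and 26.7. Some of the replicate values at each place, the 14.95 among them, matched no candidate in that replicate's own ranked list. The act-4 candidate of 47.8 upstream had 22.2 and 27.6, a closer pair than the act-2 peak.

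The strongest signal within 5 kb was higher in the cluster than at act-4 and act-5 in each list. It was 60.7 in the cluster, against 49.0 at act-4 and 44.3 at act-5 in the pooled list, which is 1.24 times the higher of these. In replicate 1 the values were 34.7 in the cluster, 22.8 at act-4 and 25.9 at act-5 (1.34 times). In replicate 2 they were 45.3 in the cluster, 27.9 at act-4 and 26.7 at act-5 (1.63 times). These are not the same peaks in each list. The 60.7 and 34.7 were of the peak past act-2. The 45.3 was of the candidate 514 bp into act-2, which had 9.20 in replicate 1. At act-4 and at act-5 the strongest candidate of replicate 1 was also another one than that of replicate 2. The log2 ratio was thus 0.42 and 0.70 in the replicates, and with 1 value per replicate and no second condition no test was made. The cluster window, 20.7 kb with 22 candidates, is longer than that of act-4 (13.8 kb, 21 candidates) or act-5 (11.7 kb, 16 candidates) taken alone. The ratios use the higher of act-4 and act-5, whose windows together cover more sequence and hold more candidates than the cluster. Window length was not adjusted for. When the windows reached 10 kb, the order turned and act-4 was higher, with a log2 ratio of -0.19. When each candidate was kept only where the nearest start site of any gene was an actin start, the values were 56.4 in the cluster, 39.0 at act-4 and 39.1 at act-5.

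Close to the start sites, act-2 stood highest and act-3 lowest in the pooled list. Each gene's strongest candidate within 1 kb of a start site was ranked among all 19985 protein-coding genes, where the median was 25.0 in the pooled list, 12.9 in replicate 1 and 13.2 in replicate 2. Genes with no such candidate were ranked lowest, 2963 in the pooled list, 6221 in replicate 1 and 6929 in replicate 2. The signals of act-2 were 56.4 pooled, 26.0 in replicate 1 and 45.3 in replicate 2, above 97.4%, 94.7% and 99.3% of genes. They belong to different candidates, at 95 bp, 778 bp and 514 bp into the gene. The one at 95 bp had 17.9 in replicate 1 and 44.1 in replicate 2. For act-1 the signals were 41.3, 26.1 and 20.9, above 90.5%, 94.8% and 83.1%. These 2 genes of the cluster were near each other in replicate 1 and apart in replicate 2. The signals of act-5 were 39.1, 16.6 and 25.3, above 88.0%, 69.6% and 92.3% of genes. For act-4 they were 39.0, 22.8 and 23.2, above 87.8%, 90.3% and 88.7%. The act-3 signals were 33.6, 14.1 and 15.5, above 77.4%, 56.2% and 61.2%. The order of act-1, act-4 and act-5 changed between the replicates, while act-3 was lowest in each list and act-2 was highest in the pooled list and in replicate 2. Only for act-1 did the values of all 3 lists come from the same candidate. The annotation gives 3 start sites for act-3, 2 for act-4 and 1 for each of the others.

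**Figure D4:**
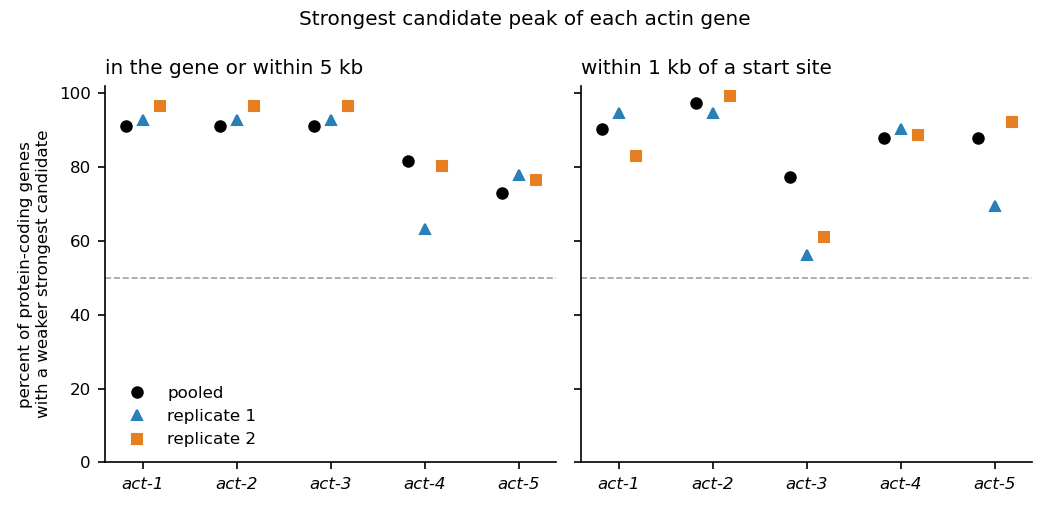
Percent of protein-coding genes whose strongest candidate is weaker than that of each actin gene (vertical axis), within 5 kb of the gene (left) and within 1 kb of a start site (right), in the pooled, replicate 1 and replicate 2 ranked lists; the dashed line is the middle gene. On the left the cluster genes share 1 value per list, 91.3, 92.8 and 96.5, above act-4 and act-5, and on the right act-2 is highest and act-3 lowest in the pooled list.

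Over the 5 kb windows, as the plot of gene percentiles shows, the cluster genes stood above 91.3% of genes in the pooled list, 92.8% in replicate 1 and 96.5% in replicate 2. For act-4 the shares were 81.7%, 63.1% and 80.3%, and for act-5 they were 73.0%, 77.8% and 76.6%. The genes most like the cluster by these 3 percentiles were C07H6.9 and cgh-1 on III, which share their peaks, at a distance of 1.48 percentile points. Those most like act-4 were Y49F6A.5 (1.42) and its neighbour M03F4.4 (1.86), whose window overlaps that of act-4. Those most like act-5 were F33H2.6 and pole-1 (1.15).

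The near identity of the actin genes touches what such peak lists can show. The coding sequences of act-1 and act-3 were identical over 1128 bases. Those of act-2 and act-1 were 96.2% identical (43 differences), act-4 and act-1 94.1% (66 differences), and act-5 and act-1 84.1% (180 differences). Promoters of the 5 genes were 41.5% to 50.9% identical in pairs, and unrelated promoters were not aligned for comparison. A promoter here is 250 bases before and 50 after the annotated 5′ end, and whether transcription starts there was not tested. Of the stretches of 36 bases in the coding exons, 100% in act-1 and 100% in act-3 occurred more than once in the genome, against 42.3% in act-2, 18.9% in act-4 and 1.47% in act-5. With stretches of 100 bases the shares were 100%, 100%, 13.8%, 2.20% and 0%. A read from a repeated stretch cannot be given to 1 place, and how the authors treated such reads is not given in the sources used here. No candidate summit of any of these lists lay in act-1 coding sequence. In act-3 coding sequence the pooled list had 1, of signal 13.1, with 8.60 in replicate 1 and 11.1 in replicate 2. The part of the repeats in these results was not tested.

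**Figure D5:**
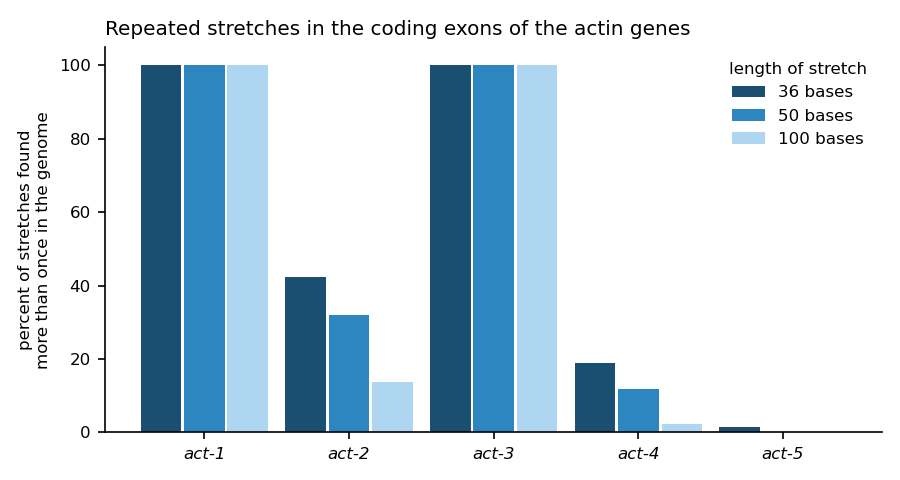
Share of stretches in the coding exons of each actin gene that occur more than once in the genome (vertical axis, percent, both strands), for stretches of 36, 50 and 100 bases. All stretches of act-1 and act-3 are repeated at each length, against 42.3% of act-2, 18.9% of act-4 and 1.47% of act-5 at 36 bases.

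The plot of repeated stretches concerns the genes, and the peaks differed from them. Neither peak outside the genes held a repeated 36-base stretch, and in the act-2 peak 13 of 205 (6.34%) were repeated, and 0 at 50 bases. In the candidate 514 bp into act-2, where replicate 2 was 4.92 times replicate 1, 98 of 205 (47.8%) were repeated. At 50 bases its share was 29.3%, and at 100 bases it was 0. Of the 815 thresholded peaks of 240 bp, 54.1% held none and 9.08% had 50% or more of their stretches repeated. The part of the repeats in the replicate difference was not tested.

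Genes of the thin and thick filaments, actin assembly and the intestinal apical surface were also counted, with tubulins as another cytoskeletal family. Of the 70 genes in these 5 lists, not all of them tied to actin, 9 (12.9%) had a thresholded peak within 5 kb. That is near the 10.7% of all protein-coding genes. None of the 15 thin filament genes had one, such as troponin and tropomyosin genes, with a median strongest signal of 35.5 and the highest signals 46.5 at cap-2, an actin capping protein, and 44.1 at tnt-2, a troponin T. None of the 10 thick filament genes had one, with a median of 40.8 and the highest 52.9 at unc-54, a muscle myosin heavy chain, and 46.3 at unc-22, twitchin. The median over all genes was 37.4. Actin assembly genes had 4 of 21 with a peak, namely the gelsolin-like gsnl-1 (signal 82.2), the Arp2/3 complex genes arx-2 (72.3) and arx-1 (56.5), and the cofilin gene unc-60 (62.6). Of these peaks only that of unc-60 lay within 1 kb, at 474 bp upstream, and the gsnl-1 summit was 4182 bp away and 4 bp from the start of a tRNA gene. The arx-2 and arx-1 summits were 1 bp and 30 bp from the starts of K07C5.13 and Y71F9AL.8. Genes of the intestinal apical surface had 2 of 9, ifd-1 (69.2) and ifb-2 (56.5), intermediate filament genes with their summits 2579 bp and 1256 bp outside, that of ifd-1 in an exon of a tRNA gene and that of ifb-2 928 bp from the start of F10C1.8. Tubulins had 3 of 15, tbb-1 (83.0), tba-7 (79.3, inside the gene) and tba-1 (57.2). Their nearest starts were those of ran-1 at 1062 bp, the noncoding RNA gene T28D6.15 at 14 bp and cox-5B at 6 bp. The ceh-40 gene itself had no thresholded peak, and its strongest candidate was 43.6. The unc-119 gene had no candidate within 5 kb in the pooled ranked list. Replicate 1's own list had a candidate of 17.3 within 1 kb of an unc-119 start site, and replicate 2's list had none.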

How the data were processed

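Per the labels, 2 biological replicates of whole synchronised young adults were sonicated and precipitated with an antibody against GFP. A control experiment named in the labels was not analysed here. The authors deposited ranked, thresholded and conservative peak lists on build ce11, each peak with a signal, a score and, in ranked lists, a -log10 IDR. How signal was computed, and with which aligner and peak caller, is not given in the sources used here. The authors' deposited signal has no unit, their score follows the IDR, and depth is unknown since no read counts were used.

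Peaks were assigned by summit to Ensembl release 115 genes, the same assembly as ce11, with Python 3.11.15, numpy 2.4.6, pandas 2.3.3 and biopython 1.88. Start and end are 1-based. Replicate signals came from the list that matches both replicates. Of its 77932 peaks, 35740 had their first signal in replicate 1's own list and 0 in replicate 2's, and 41183 had their second in replicate 2's and 0 in replicate 1's. Sequences came from the RefSeq genome of WBcel235, and windows were tested on simulated peaks. The text names every actin gene, the genes nearest its peaks, the 2 genes most like each, list members with a peak (else the 2 strongest), ceh-40 and unc-119. Neighbours of candidate peaks were added later. Members and lists were chosen with earlier results of these data known. Alternatives were other windows, the conservative list, a stricter IDR and each replicate alone.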

Additional observations from a re-analysis of the deposited data

How the results depend on the processing

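The count of actin genes with a thresholded peak, 3 with a 5 kb window, was 2 at 2 kb and 4 at 10 kb or when any base of a peak counted. It was 1 (act-2) at 1 kb, 0 in the conservative list, 0 at an IDR of at most 0.001, and 0 to 0 when either replicate was left out. The share of listed genes with a peak, 12.9%, was 10% in the conservative list, 5.71% at 2 kb, 2.86% at 1 kb and 0 to 2.86% when either replicate was left out. Windows of 1 kb and 2 kb cover less sequence, and the replicates' own lists are shorter, with 296 and 287 peaks. The log2 ratio of the strongest signal in the cluster over act-4 and act-5, 0.31, was 0.63 at 1 kb, 0.53 with only candidates nearest to an actin start, and 0.42 to 0.70 when either replicate was left out. It reversed to -0.19 at 10 kb, where the act-4 window takes in the peak of signal 69.1. Of 33 alternatives for single genes and peaks, 13 stayed within their spread or within 1.5 times and 20 moved. The depth behind each peak is unknown, so no counting error can be given. No paired analysis was possible because there is 1 group of 2 replicates and no comparison between conditions.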
